A study of Mus musculus with 13 samples.

Results

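Interferon response genes are transcripts that a cell raises when an interferon, a signalling protein of antiviral and antimicrobial defence, binds its receptor. The 42 genes described here were taken as a list of gene symbols and not by a rule on their levels. Earlier results of these data were known when they were chosen. Each was found once among the 22298 genes of the expression table. They were sorted by known role into 9 groups: cytosolic sensors, transcription factors, ISG15 and its enzymes, IFIT proteins, oligoadenylate synthetases, the Mx, viperin and tetherin group, interferon-inducible GTPases, chemokines, and other induced genes.

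RNA of liver and kidney from CD-1 (ICR) mice, an outbred stock, was sequenced at 8 weeks of age. The mice had grown from oocytes that were fertilised either fresh or after Cryotop vitrification. That is an ultrafast cooling of the egg on a thin film, from which it is warmed before use. There were 3 livers and 3 kidneys of fresh origin and 3 livers and 4 kidneys of vitrified origin. Both origins shared every other step, namely fertilisation in vitro, culture of the zygotes, and transfer of cleaved embryos into pseudopregnant females, so no naturally conceived mice were included. The labels call the libraries biological replicates, give neither sex nor litter, and leave unsaid if equal numbers in both organs mark 1 mouse. The tests below therefore rest on the spread among these samples alone, part of which may be technical.

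Type I interferons bind the receptor IFNAR, whose kinases activate a transcription factor complex that includes STAT2 and IRF9. That complex binds a DNA element called ISRE in promoters of its target genes. Type II interferon acts mainly through a different element, called GAS, and the interferon-inducible GTPases and the chemokines Cxcl9 and Cxcl10 are known as targets of it. In liver, Kupffer cells, hepatocytes and lymphocytes can all respond, and in kidney the tubule, the endothelium and resident immune cells can.

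These elements were looked for in RefSeq promoters of build GRCm38.p6, from 250 bases before to 50 bases after the start of each gene, and 32 of the 42 genes had one. The ISRE core was searched as GAAA, any 2 bases and GAAA again, or the reverse complement of that, and GAS as TTCNNNGAA, where N is any base. An ISRE core stood in a promoter of 19 of the 32 genes (59.4%), against 3.99% of the 27025 genes with a promoter of that length. GAS stood in a promoter of 8 of the 32 genes (25%), against 9.55% of all such genes. Gbp3, Ifit2, Irf1 and Irf9 had 2 promoters each, and a match in either was counted. A match of letters is a description and not a measured binding site. ISRE matches overlapped each other in Isg15, Bst2, Oas1a, Oas1g, Gbp3 and Irgm1, and in Bst2 a GAS match overlapped an ISRE match. The windows below are from genes whose values are given in the following paragraphs, 5′ to 3′ on the strand of the gene, with the matched core in capitals.
Isg15 (chr4:156200871-156200900, minus strand): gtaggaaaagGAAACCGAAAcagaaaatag
Ifit3 (chr19:34583363-34583392, plus strand): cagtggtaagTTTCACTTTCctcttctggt
Ifit3b (chr19:34607759-34607788, plus strand): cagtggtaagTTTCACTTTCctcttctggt
Oas1g (chr5:120887606-120887635, minus strand): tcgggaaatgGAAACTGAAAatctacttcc
Oas3 (chr5:120777715-120777744, minus strand): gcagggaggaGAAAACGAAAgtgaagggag
Bst2 (chr8:71537577-71537606, minus strand): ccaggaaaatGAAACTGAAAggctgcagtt
Rsad2 (chr12:26456553-26456582, minus strand): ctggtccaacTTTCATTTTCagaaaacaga
Gbp2 (chr3:142620594-142620623, plus strand): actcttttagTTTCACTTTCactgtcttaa
Gbp3 (chr3:142559989-142560018, plus strand): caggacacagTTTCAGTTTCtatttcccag
Cxcl10 (chr5:92349083-92349112, minus strand): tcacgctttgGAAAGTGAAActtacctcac
Ddx58 (chr4:40239804-40239833, minus strand): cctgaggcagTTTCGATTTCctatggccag
Igtp (chr11:58199512-58199541, plus strand): tctaggaactGAAACTGAAAgctgttcggg
Irgm2 (chr11:58214903-58214932, plus strand): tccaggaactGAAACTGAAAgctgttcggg
Irf1, GAS (chr11:53769914-53769942, plus strand): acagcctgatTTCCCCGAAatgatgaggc
The windows of Ifit3 and Ifit3b, near-identical neighbouring genes, held the same letters. Cxcl9, Herc6 and Cmpk2 were among the 13 matched genes without an ISRE core in this window.

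The libraries held 16073251 to 19964914 estimated counts each, and levels are given as CPM, which are counts scaled to that total. Hepatocyte markers summed to between 70701 and 174480 CPM in the livers and to at most 3285 CPM in the kidneys, while markers of nephron segments outside the proximal tubule summed to at least 4181 CPM in the kidneys and at most 12.8 CPM in the livers. Of the 13 libraries, 3 were near 0 in the sum of the Y-linked transcripts Ddx3y, Uty, Kdm5d and Eif2s3y. These were liver fresh 3 (0.778 CPM), kidney vitrified 4 (0.170 CPM) and kidney fresh 3 (1.25 CPM), while the other 10 held 137 to 205 CPM. Heat shock and immediate early transcripts reached a sum of 583 CPM in liver vitrified 3, where the other livers had at most 40.7 CPM. Kidney vitrified 3 reached 1204 CPM of them, where the other kidneys had at most 169 CPM. In whole tissue, a change in the number of cells of a type cannot be told apart from a change in RNA per cell.

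In the kidney, 1 library carried the highest levels of nearly the whole response. Kidney vitrified 4 was the highest of the 7 kidneys for 40 of the 42 genes, and was so for 33.9% of the 13155 kidney genes with a mean of at least 1 CPM. Its level was 3.78 times the median of the other 6 kidneys at the median gene of the list, against 1.15 times over all those genes. It lay at 2 times that median or more for 37 of the 42 genes, against 11.6% of all genes. Kidney fresh 3 was next, with the second highest level for 34 genes and the highest for the remaining 2, Gbp3 and Trim25. Kidney fresh 3 was the highest kidney for 17.9% of all genes and lay at 2 times the median of the others or more for 13 of the 42, against 6.87% of all genes. The other 5 kidneys had median ratios between 0.709 and 1.07. Among the 4 vitrified kidneys alone, its gap to the next library exceeded the critical value of Dixon's test for 29 of the 42 genes, against 4.37% of all genes. The deposited FPKM values, which are counts per transcript length and depth, gave the same 40 and 2.

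**Figure D1:**
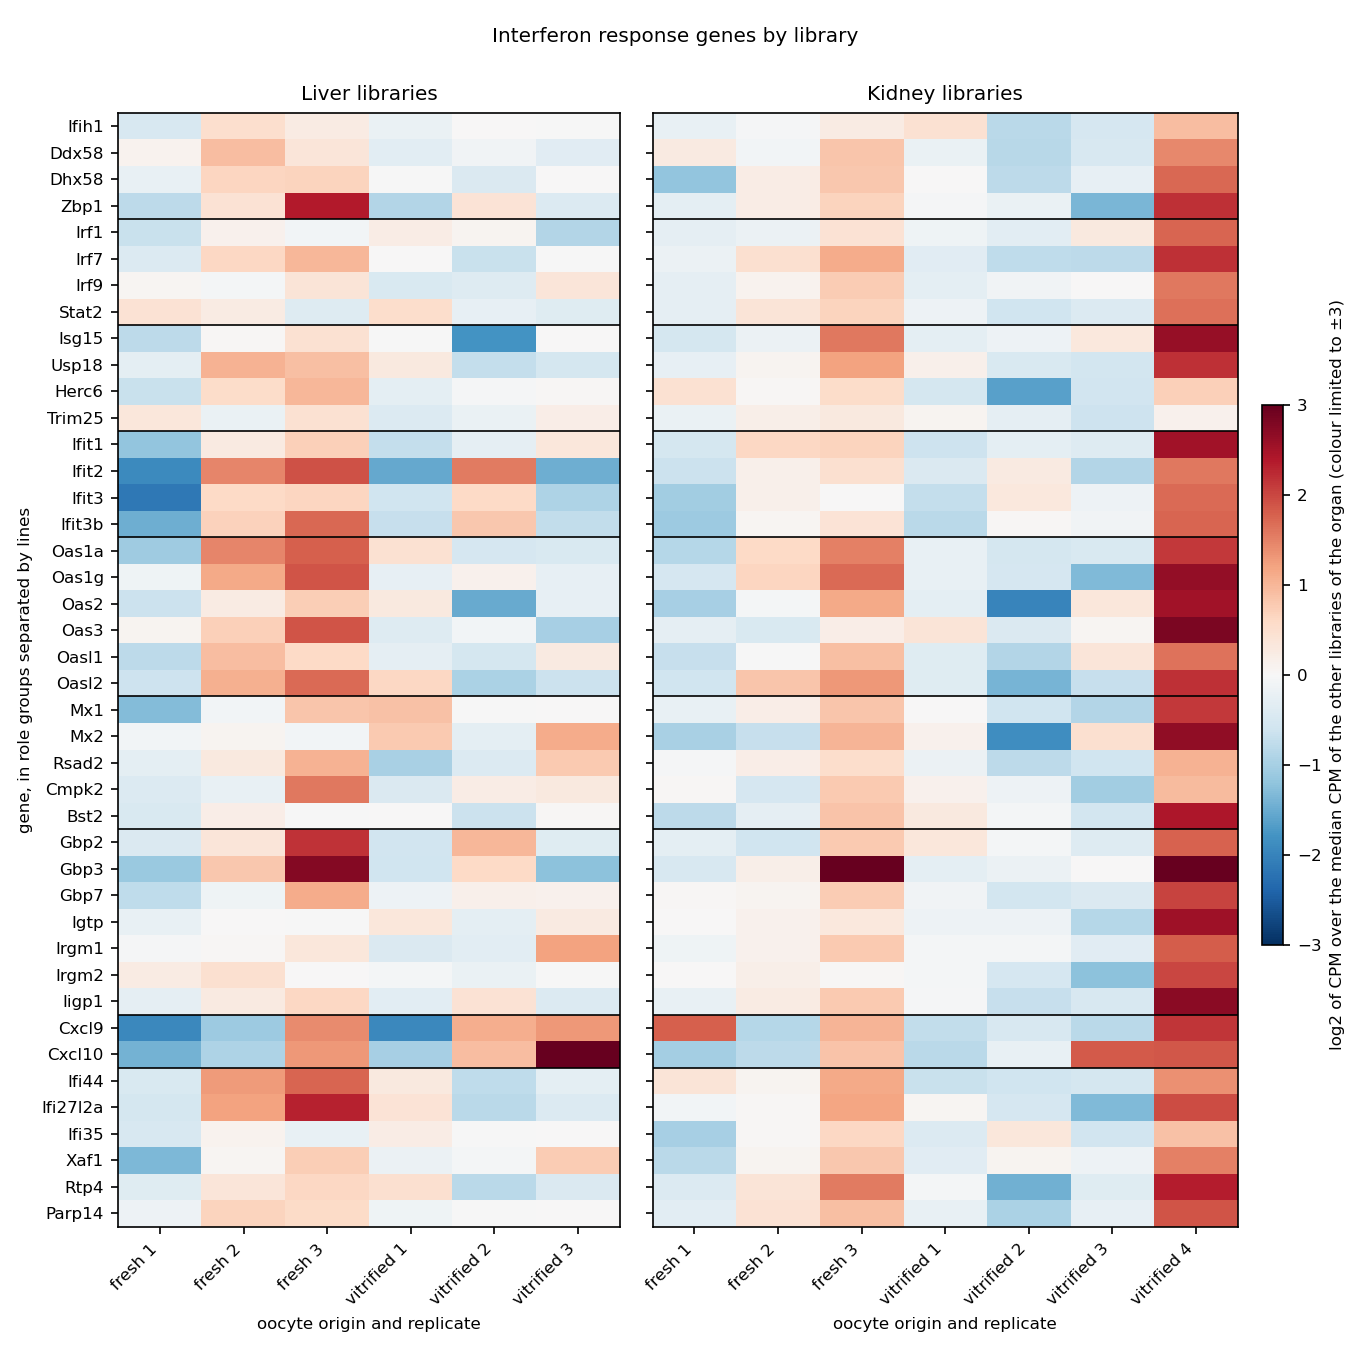
Each row is 1 gene and each column 1 library; colour is log2 of the CPM of that library over the median CPM of the other libraries of its organ, limited to 3 in either direction, with lines between role groups. The column of kidney vitrified 4 is red in nearly every row, kidney fresh 3 is the next, and liver fresh 3 is the reddest column among the livers.

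Among the effectors, Isg15, a ubiquitin-like protein that is attached to other proteins (ENSMUSG00000035692), lay at 1.06, 1.35 and 4.08 CPM in kidney fresh 1, 2 and 3. The 4 vitrified kidneys held 1.25, 1.37, 1.69 and 8.33 CPM of it. The highest library of each origin stood apart from the rest of its group, and the groups overlapped. Oas1g, a synthetase of the adenylate chains that switch on RNase L (ENSMUSG00000066861), lay at 0.775, 1.31 and 2.71 CPM in the fresh and 0.893, 0.773, 0.442 and 5.15 CPM in the vitrified kidneys. Its counts are uncertain, since 0.457 of its 50-base words also occur in other genes, mainly Oas1a. Summed over Oas1a and Oas1g, kidney vitrified 4 held 17.4 CPM, kidney fresh 3 held 10.7 CPM and the other 5 kidneys between 2.77 and 5.58 CPM.

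Oas3, the largest of these synthetases (ENSMUSG00000032661), was near the lowest level of the list, at 0.353, 0.307 and 0.436 CPM in the fresh kidneys and 0.501, 0.311, 0.411 and 2.72 CPM in the vitrified ones. Here kidney vitrified 4 was 7.12 times the median of the other kidneys, and kidney fresh 3 was not set apart. Mx2, an antiviral GTPase of the dynamin family (ENSMUSG00000023341), lay at 0.807, 0.982 and 2.45 CPM in the fresh and 1.45, 0.436, 1.69 and 7.65 CPM in the vitrified kidneys. Again the top value of each group was in fresh 3 and vitrified 4.

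Of the GTPases that attack vacuoles holding microbes, Gbp3, a guanylate-binding protein (ENSMUSG00000028268), had the highest ratio of the list in kidney and lay at 7.21, 10.5 and 89.5 CPM in the fresh kidneys. In the vitrified kidneys it lay at 8.21, 8.90, 9.76 and 83.9 CPM. Kidney fresh 3 and kidney vitrified 4 were at 9.59 and 8.99 times the median of the other kidneys, and each origin held 1 such library. Iigp1, an immunity-related GTPase (ENSMUSG00000054072), lay at 10.7, 13.4 and 19.2 CPM in the fresh and 11.8, 7.84, 9.04 and 72.9 CPM in the vitrified kidneys. Kidney vitrified 4 alone was high for Iigp1, at 6.49 times the median of the others.

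Apart from Gbp3 and Trim25, the members of each group were highest in kidney vitrified 4. The 4 sensors, Ifih1, Ddx58, Dhx58 and Zbp1, had ratios to the other kidneys between 1.90 and 4.60 there. The 4 transcription factors, Irf1, Irf7, Irf9 and Stat2, lay between 2.998 and 4.57 times, with Irf7 at 44.2 CPM against at most 20.9 CPM elsewhere. The 4 IFIT genes, whose proteins bind foreign RNA, lay between 3.01 and 5.71 times. In the ISG15 group, Usp18, which removes ISG15 from proteins, reached 13.8 CPM against at most 6.92 CPM, while Trim25, a ubiquitin ligase that acts on the sensor RIG-I, was at 64.4 CPM within a kidney range of 41.1 to 72.7 CPM. The 6 other induced genes, Ifi44, Ifi27l2a, Ifi35, Xaf1, Rtp4 and Parp14, lay between 1.85 and 5.12 times the other kidneys.

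**Figure D2:**
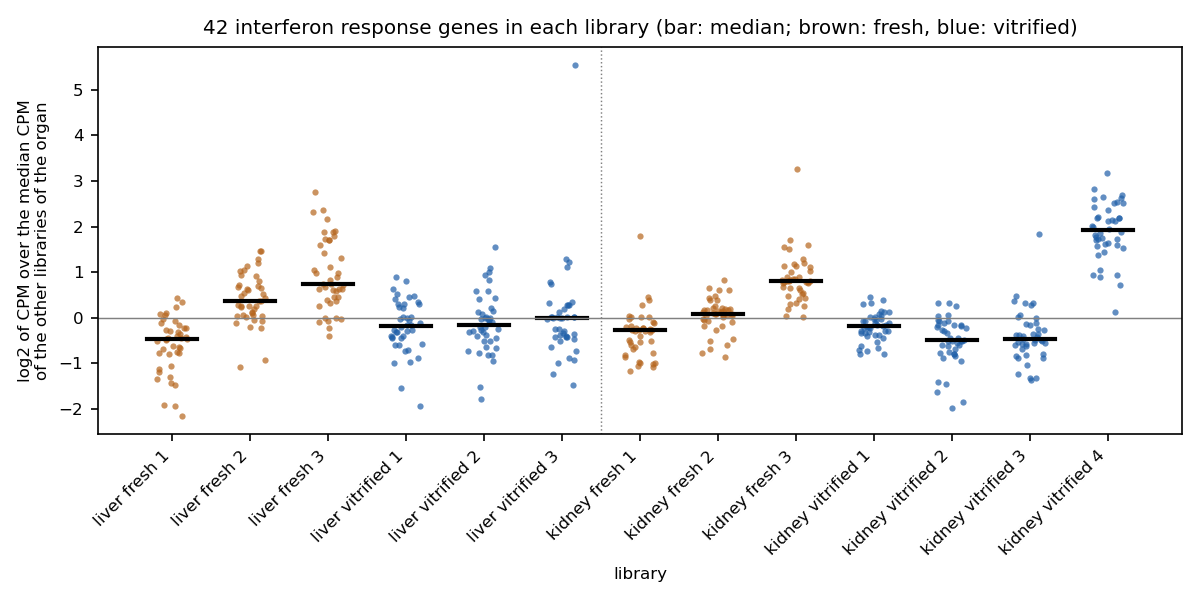
Each point is 1 of the 42 genes in 1 library, as log2 of its CPM over the median CPM of the other libraries of the organ, and the bar is the median gene. Kidney vitrified 4 lies above 0 for all 42 genes, kidney fresh 3 and liver fresh 3 are next, and the highest point of liver vitrified 3 is Cxcl10.

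Kidney fresh 3 and kidney vitrified 4, both near 0 in Y-linked counts, exceeded each of the other 5 kidneys for 35 of the 42 genes, against 33.1% of kidney genes. For 22 of the 42 genes, among them Isg15, Irf7, Zbp1, Gbp2, Gbp3, Iigp1 and Rsad2, liver fresh 3 also exceeded every other liver, so that all 3 libraries near 0 in Y-linked counts were the highest of their organ. That held for 5.85% of the 11099 genes with a mean of at least 1 CPM in both organs. The part of sex in these levels was not tested, and liver fresh 3 and kidney fresh 3, which share a number, may come from 1 mouse.

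Several sums of cell type markers were also highest in kidney vitrified 4. Counts of markers highest there stand beside the 33.9% of all kidney genes that were highest in it. Its summed natural killer cell markers, 10.9 CPM, exceeded the 2.72 to 5.28 CPM of the other kidneys, and 8 of 9 were highest there. Dendritic cell markers summed to 57.1 CPM against 24.6 to 46.2 CPM (6 of 8 highest there), and endothelial markers to 573 CPM against 233 to 418 CPM (6 of 7). T cell markers summed to 18.1 CPM, inside the range of 9.27 to 20.3 CPM of the others, with 7 of 10 highest there, and macrophage markers to 137 CPM against 81.0 to 113 CPM (5 of 12). Markers of nephron segments outside the proximal tubule summed to 9921 CPM against 4181 to 8104 CPM (7 of 7 highest there), and proximal tubule markers to 15025 CPM against 21889 to 43173 CPM. Hepatocyte markers summed to 286 CPM, the lowest of the kidneys, with 3 of 9 at 0 and 0 of 9 highest there. For 3 more lists the ranges were as follows. B and plasma cell markers summed to 63.5 to 450 CPM in the vitrified kidneys and 26.6 to 240 CPM in the fresh ones. Neutrophil and monocyte markers summed to 13.7 to 16.8 CPM in the vitrified and 8.36 to 10.4 CPM in the fresh kidneys. Red blood cell markers summed to 564 to 852 CPM and 332 to 923 CPM. The part of cell makeup in the levels of kidney vitrified 4 was not tested.

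In the liver the highest levels were spread over more libraries. Counted by the highest library alone, only liver fresh 3 exceeded its share of all genes. Liver fresh 3 was the highest of 6 livers for 26 of the 42 genes, against 16.3% of the 11551 liver genes with a mean of at least 1 CPM, and its median ratio to the other livers was 1.67 (all genes 0.989). It lay at 2 times the other livers or more for 16 genes, against 4.34% of all genes. Liver fresh 2 was highest for 7, against 16.9% of all liver genes, and liver vitrified 1 for 5, against 16.5%. Liver fresh 2 was also second highest for 15 genes, with a median ratio of 1.28 (all genes 1.04). It lay at 2 times the other livers or more for 7 genes, against 1.71% of all genes. Liver vitrified 3 was highest for 4, namely Cxcl10, Irgm1, Mx2 and Xaf1. Liver vitrified 3 was the highest liver for 14.9% of all genes, and lay at 2 times the others or more for 4 of the 42 genes, against 5.03% of all genes.

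Gbp3 lay at 4.05, 10.1 and 39.1 CPM in liver fresh 1, 2 and 3 and at 5.81, 8.77 and 3.72 CPM in liver vitrified 1, 2 and 3. Liver fresh 3 was 6.74 times the median of the others, in the direction of the 2 kidneys named above. Zbp1, a sensor of Z-form nucleic acids that can start cell death (ENSMUSG00000027514), lay at 3.12, 5.43 and 20.8 CPM in the fresh and 2.93, 5.36 and 4.03 CPM in the vitrified livers. Ifi27l2a, a small mitochondrial protein gene (ENSMUSG00000079017), lay at 2.79, 6.87 and 14.9 CPM in the fresh and 3.99, 2.27 and 3.00 CPM in the vitrified livers. For each of these genes liver fresh 3 was the top library and the groups overlapped.

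Gbp2, another guanylate-binding protein (ENSMUSG00000028270), lay at 3.23, 4.38 and 15.4 CPM in the fresh and 2.93, 6.81 and 3.41 CPM in the vitrified livers. Ifit2 (ENSMUSG00000045932) lay at 2.68, 10.03 and 13.6 CPM in the fresh livers and at 3.44, 10.7 and 3.62 CPM in the vitrified ones. Its livers split into 3 near 3 CPM and 3 at 10.03 CPM or above, and each origin held both kinds. Over the 4 IFIT genes, liver fresh 1 lay between 0.225 and 0.442 times the median of the other livers.

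Cxcl10, a chemokine that draws activated T cells (ENSMUSG00000034855), was high in a library of its own. It lay at 1.42, 1.996 and 4.93 CPM in the fresh livers and at 1.92, 3.82 and 93.8 CPM in the vitrified ones, so that liver vitrified 3 stood at 47.0 times the median of the others. Cxcl9, a chemokine that acts on the same receptor (ENSMUSG00000029417), lay at 6.78, 12.3 and 33.1 CPM in the fresh and 6.82, 26.04 and 30.2 CPM in the vitrified livers, with no such library. Irgm1, a regulator of the immunity-related GTPases, reached 118 CPM in liver vitrified 3 and between 38.6 and 63.9 CPM in the other livers. Beside these values, liver vitrified 3 held 67.4 CPM of Socs3 and 11.2 CPM of Socs1, inhibitors of cytokine signalling, against at most 7.71 and 0.606 CPM in the other livers. It also held the summed heat shock and immediate early transcripts given above and the highest acute phase sum, 5292 CPM against 2203 to 3884 CPM. Its natural killer cell markers, 1.4995 CPM, and macrophage markers, 239 CPM, were the lowest sums of the 6 livers.

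Beside the levels of liver fresh 3 stood natural killer cell markers of 9.08 CPM, against 1.4995 to 6.14 CPM in the other livers. Of these markers 6 of 9 were highest there, against 16.3% of all liver genes. Its Kupffer cell and macrophage markers summed to 601 CPM. Liver vitrified 2 had more of these, 619 CPM with 8 of 12 highest there. It was the highest liver for 0 of the 42 genes, against 23.9% of all liver genes. The other 4 livers held between 239 and 402 CPM. The part of immune cells in the liver values was not tested.

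**Figure D3:**
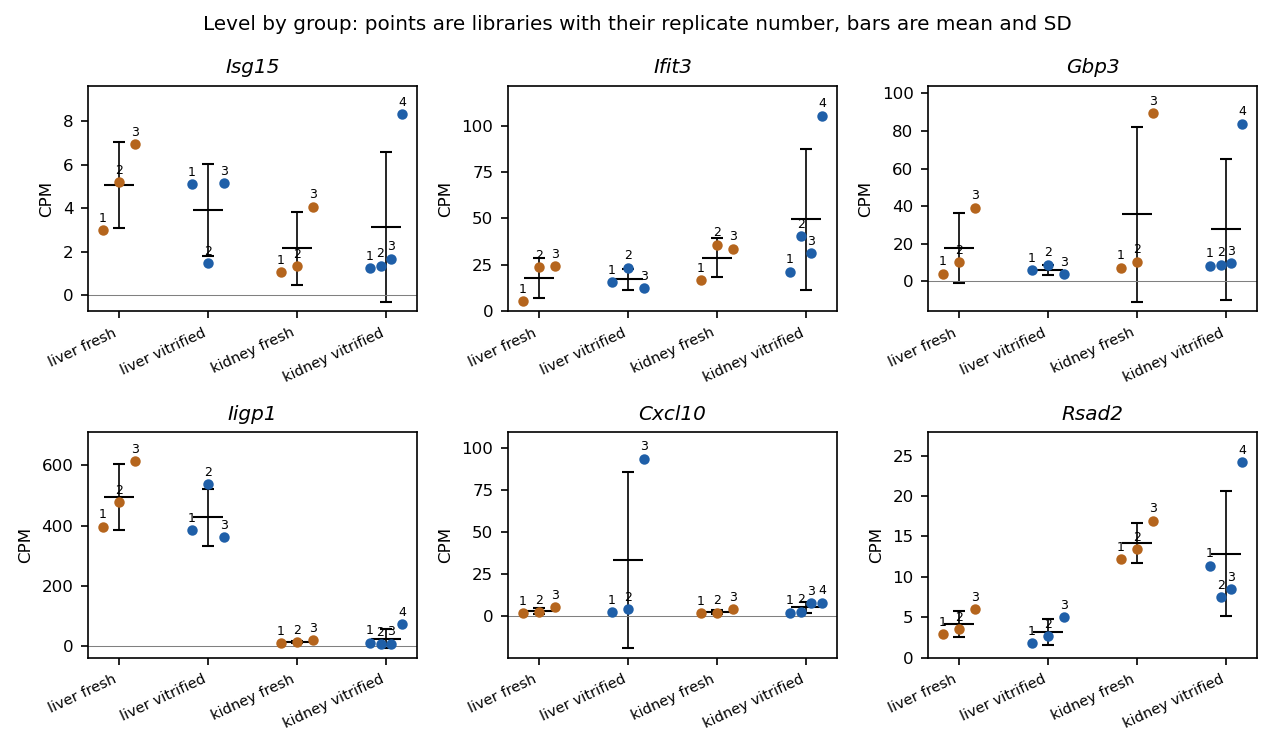
CPM of 6 genes by group, with a point for each library labelled by its replicate number and the mean and SD as bars, on linear axes that differ between panels. Vitrified 4 is the top kidney for Isg15, Ifit3, Iigp1, Cxcl10 and Rsad2, fresh 3 tops the kidneys for Gbp3, and the 93.8 CPM of Cxcl10 belongs to liver vitrified 3.

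The next comparison asked whether kidneys of vitrified origin differed from kidneys of fresh origin in these genes, and no single gene passed the test. The transcription factors and the IFIT genes all had positive log2 fold changes, as did 6 of the 7 GTPases, while Herc6, Gbp3, Ifi44, Cxcl9, Trim25, Rsad2, Ddx58, Cmpk2 and Oasl2 had negative ones. With edgeR's quasi-likelihood test, 0 of 40 genes tested had an adjusted p under 0.05 in either direction, against 0% of the 14018 kidney genes. Oas3 and Mx1 were left out by the filter on low counts. At an unadjusted p under 0.05 there were 0 of the 40, against 2.05% of all genes, and DESeq2 called 0 of the 42 (11 genes over the whole table). The median log2 fold change, vitrified over fresh, was 0.27, with 31 above 0 and 9 below, against 0.02 over all genes.

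Kidney vitrified 4 set that direction. Without it the median was -0.44, with 4 genes above 0 and 36 below, and 8 genes reached an unadjusted p under 0.05, namely Irf7, Ifi44, Oasl2, Herc6, Ddx58, Rsad2, Gbp7 and Stat2, all lower in the vitrified kidneys, against 5.05% of the 13849 genes of that fit. None of these passed the adjustment over all genes (adjusted p = 0.774 by edgeR, log2 fold changes between -0.95 and -0.44). That fit kept kidney fresh 3, the high library of fresh origin. Without kidney fresh 3 the median was 0.56 (35 above 0), and without both libraries it was -0.19 (14 above 0). Without both, 3 genes reached an unadjusted p under 0.05 by edgeR, Irf7, Ifi44 and Herc6, all lower in the vitrified kidneys. Over all genes 728 of 13985 did so in that fit, and the lowest adjusted p of the list was 0.722 by edgeR.

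Of the genes with the smallest p, Cxcl10 lay at 1.56, 1.84 and 3.87 CPM in the fresh and 1.80, 2.43, 7.65 and 7.76 CPM in the vitrified kidneys. Vitrified 3 and 4 were high and vitrified 1 and 2 lay within the fresh range (log2 fold change 1.06 ± 0.57, SE). Herc6, the ligase that attaches ISG15 in mouse (ENSMUSG00000029798), lay at 13.97, 11.6 and 14.9 CPM in the fresh and 8.82, 4.11, 8.57 and 16.8 CPM in the vitrified kidneys. Vitrified 4 was the highest kidney and the other 3 vitrified kidneys the lowest (-0.52 ± 0.34, and -0.83 ± 0.29 without vitrified 4).

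Ifit3 (ENSMUSG00000074896) lay at 16.8, 35.9 and 33.7 CPM in the fresh and 21.2, 40.4, 31.1 and 105 CPM in the vitrified kidneys (0.75 ± 0.48, and 0.21 ± 0.33 without vitrified 4). It shares 0.512 of its words with Ifit3b, so both are uncertain, and their sum was 141 CPM in vitrified 4 and 22.0 to 51.5 CPM in the other kidneys. Each of these 3 genes had an adjusted p of 0.999 by edgeR. The CPM of the origins did not overlap for 0 of the 42 genes in either direction, against 1.18% of kidney genes tested with vitrified higher and 1.69% with vitrified lower.

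The same question was asked in the liver, where vitrified livers lay below fresh ones for most of the list but no gene passed. All 6 oligoadenylate synthetase genes, all 4 sensors, all 4 IFIT genes and all 4 genes of the ISG15 group had negative log2 fold changes, and both chemokines had positive ones. Some of these signs turned on 1 library: without liver fresh 3, 3 of the 4 IFIT genes and 1 of the 4 of the ISG15 group were above 0, without liver vitrified 3, both chemokines were below 0, and the synthetases and sensors were below 0 without either. With edgeR, 0 of 42 genes had an adjusted p under 0.05, against 0% of 12335 liver genes. At an unadjusted p under 0.05 there were 5 genes, Ddx58, Oas3, Oas1g, Ifi44 and Ifi27l2a, all lower in vitrified livers, against 3.16% of all genes, and DESeq2 called 0 of the 42 (9 genes over the whole table). The median log2 fold change was -0.30, with 10 above 0 and 32 below, against 0.01 over all genes. Without liver fresh 3 it was -0.05, with 17 above 0. Leaving out liver fresh 1 instead gave a median of -0.53, with 6 above 0. In that fit 13 genes reached an unadjusted p under 0.05 by edgeR, all lower in vitrified livers. Over all genes 487 of 12581 did so, and the lowest adjusted p of the list was 0.982 by edgeR.

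Ddx58, which encodes the viral RNA sensor RIG-I (ENSMUSG00000040296), lay at 21.3, 37.7 and 25.5 CPM in the fresh and 17.1, 19.7 and 16.9 CPM in the vitrified livers. The groups did not overlap, and the log2 fold change was -0.61 ± 0.23 with liver fresh 3 and -0.67 ± 0.26 without it. Oas3 lay at 0.930, 1.44 and 3.22 CPM in the fresh and 0.707, 0.877 and 0.465 CPM in the vitrified livers. These groups did not overlap either, and the log2 fold change moved from -1.42 ± 0.53 to -0.76 ± 0.48 without liver fresh 3.

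Oas1g lay at 1.05, 2.30 and 3.88 CPM in the fresh and 0.957, 1.14 and 0.964 CPM in the vitrified livers. Liver vitrified 2 exceeded liver fresh 1, so the groups overlapped, and the log2 fold change was -1.18 ± 0.50. Summed over Oas1a and Oas1g, the fresh livers held 3.12, 10.9 and 14.7 CPM and the vitrified livers 5.25, 4.18 and 4.085 CPM. Each vitrified liver exceeded liver fresh 1 in that sum. The adjusted p of Ddx58, Oas3 and Oas1g was 0.990 each by edgeR. Vitrified livers lay below all fresh livers for 3 of the 42 genes, Ddx58, Irgm2 and Oas3, against 3.4% of liver genes tested, and above all of them for 0, against 4.18%. The log2 fold change of Cxcl10, 3.76 ± 1.77, was -0.02 ± 0.57 without liver vitrified 3.

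**Figure D4:**
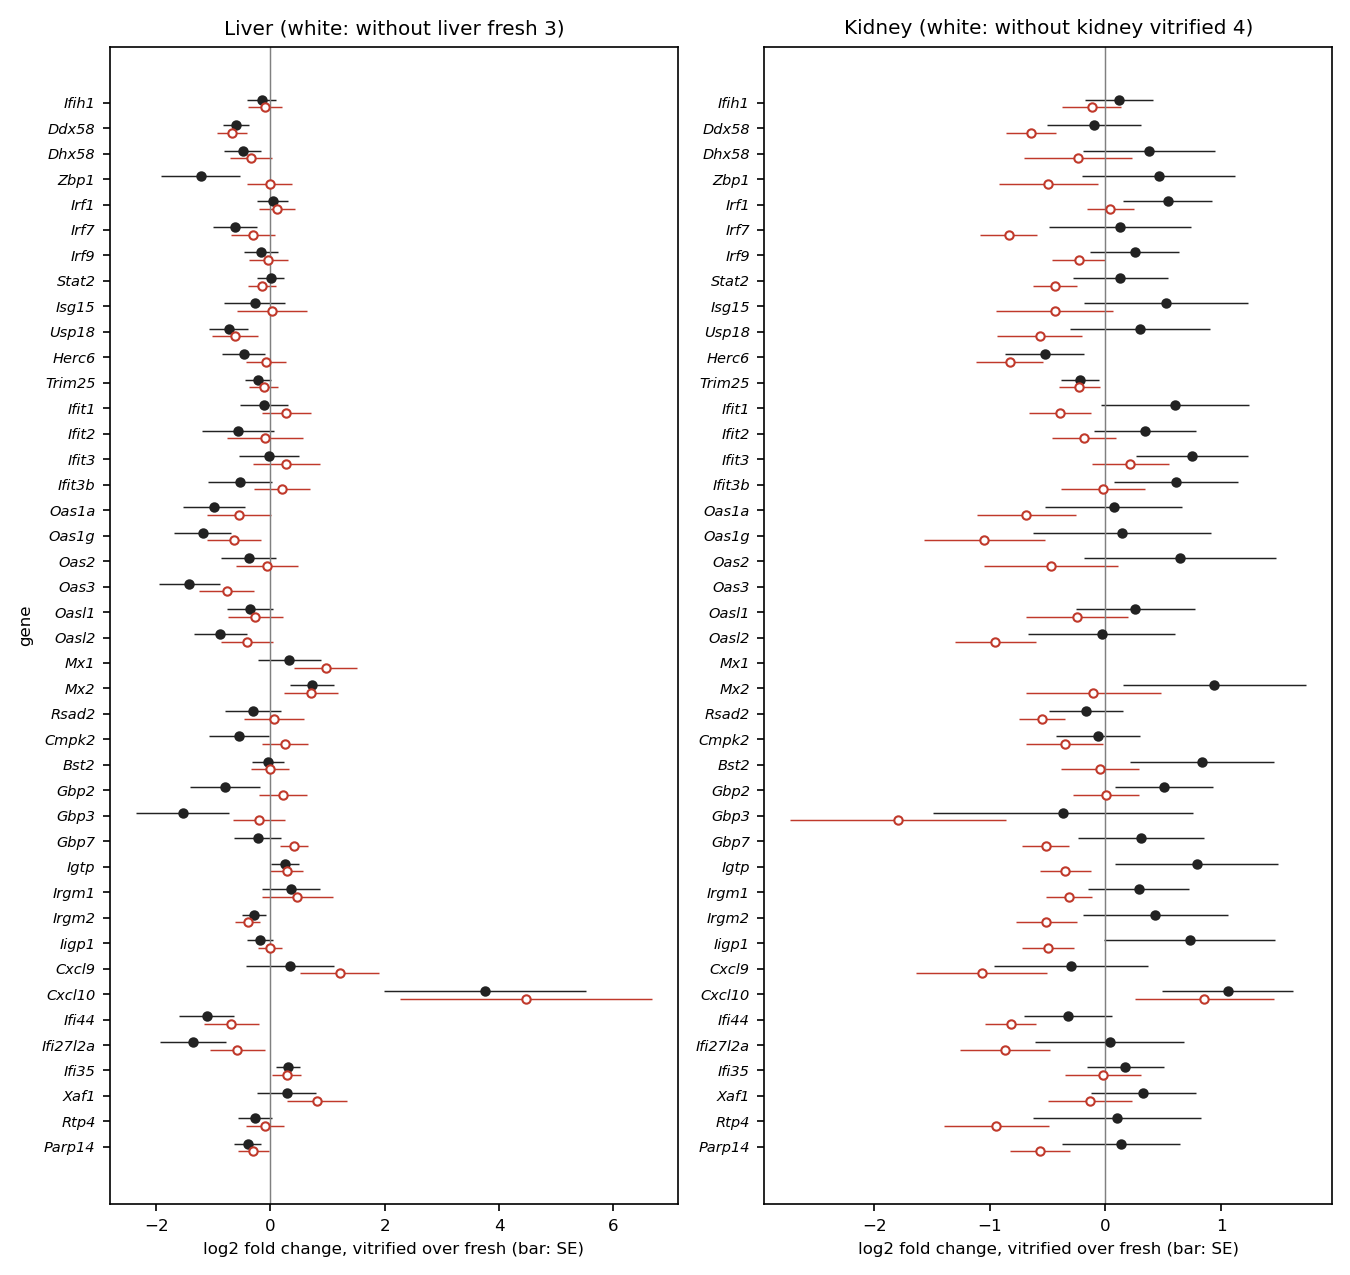
Log2 fold change of each gene, vitrified over fresh, with its SE as a bar; black points are the fit of all libraries of the organ, and white points leave out liver fresh 3 (left) or kidney vitrified 4 (right). In the kidney most points move from above 0 to below it, with the median going from 0.27 to -0.44; Oas3 and Mx1 were not tested there.

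The third comparison was between the organs, over both origins. Relative to the other genes of each organ, most of the list was lower in kidney than in liver. With TMM scaling, which takes the typical gene as equal between libraries, 31 of the 42 genes passed edgeR's test, 29 of them higher in liver and 2 higher in kidney. Over all 14441 genes tested 62.7% passed, 30.3% higher in liver and 32.4% higher in kidney. The median log2 fold change, kidney over liver, was -1.45 for the list and -0.00417 over all genes.

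The direction depended on the scaling for part of the list. With library totals alone, the median over all genes was 0.99 instead, and 21 of the 42 genes passed, 13 higher in liver, against 10.5% of all genes, and 8 higher in kidney, against 69.7%. With limma on log2(FPKM + 1) they were 14 and 7, against 10.3% and 67.6% of all genes, with an all-gene median of 0.62. Under all 3 scalings 11 genes were called higher in liver, Bst2, Cxcl9, Dhx58, Ifi35, Ifih1, Igtp, Iigp1, Irgm2, Mx2, Stat2 and Zbp1, and 2 higher in kidney, Cmpk2 and Rsad2. Of the 4 sensors 3 were among those 11, of the 7 GTPases 3, and of the IFIT and oligoadenylate synthetase genes 0. Trim25 was called lower in kidney with TMM (-0.59 ± 0.14) and higher with library totals (0.41 ± 0.14), with adjusted p-values by edgeR of 0.00218 and 0.0165.

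Iigp1 had the largest organ difference, at 396, 478 and 614 CPM in the fresh and 384, 537 and 362 CPM in the vitrified livers, against the kidney values of 7.84 to 72.9 CPM given above. The organs did not overlap, and the log2 fold change, kidney over liver, was -5.64 ± 0.52 (adjusted p by edgeR 8.21e-07). Cxcl9 lay at 2.22, 0.552 and 1.31 CPM in the fresh and 0.601, 0.684, 0.565 and 2.83 CPM in the vitrified kidneys, below each liver (-4.93 ± 0.58, adjusted p by edgeR 8.57e-06). Kidney vitrified 4 and kidney fresh 1 were the top kidneys.

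Bst2, the gene of tetherin, which holds budding virus at the cell surface (ENSMUSG00000046718), lay at 44.4, 68.6 and 60.2 CPM in the fresh and 60.7, 38.6 and 61.4 CPM in the vitrified livers. In the kidney it lay at 3.99, 5.71 and 10.8 CPM in the fresh and 7.36, 6.28, 4.67 and 32.2 CPM in the vitrified group. Kidney vitrified 4 came near the livers without reaching them (-3.65 ± 0.41, adjusted p by edgeR 6.41e-06). Mx2 in the livers lay at 5.96, 6.26 and 5.92 CPM in the fresh and 10.4, 5.10 and 12.9 CPM in the vitrified group, and kidney vitrified 4, at 7.65 CPM, lay within that range (-2.995 ± 0.50, adjusted p by edgeR 1.89e-04).

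Rsad2, the gene of viperin, an enzyme that makes an antiviral nucleotide analogue (ENSMUSG00000020641), went the other way. It lay at 2.90, 3.55 and 6.02 CPM in the fresh and 1.82, 2.68 and 5.02 CPM in the vitrified livers. In the kidneys it lay at 12.2, 13.4 and 16.9 CPM in the fresh and 11.4, 7.47, 8.47 and 24.2 CPM in the vitrified group. Each kidney exceeded each liver, as was the case for 53.3% of 13114 genes, and the log2 fold change was 0.85 ± 0.31 (adjusted p by edgeR 0.0278). For liver above kidney, 3 of the 42 genes did not overlap, Bst2, Cxcl9 and Iigp1, against 7.08% of genes.

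Cmpk2, a nucleotide kinase encoded beside Rsad2 (ENSMUSG00000020638), lay at 1.75, 1.996 and 6.02 CPM in the fresh and 1.72, 2.32 and 2.43 CPM in the vitrified livers. In the kidneys it lay at 9.94, 7.18 and 16.3 CPM in the fresh and 10.4, 9.15, 4.93 and 18.3 CPM in the vitrified group. Liver fresh 3 was above kidney vitrified 3, so the organs overlapped in that pair (1.01 ± 0.34, adjusted p by edgeR 0.0193). In fits of fresh libraries alone neither gene passed (0.80 ± 0.29 for Rsad2 and 0.78 ± 0.51 for Cmpk2). Rsad2 also missed the threshold without liver fresh 1 or 2, liver vitrified 1 or 2, or kidney vitrified 4, with adjusted p-values by edgeR between 0.0534 and 0.0663.

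**Figure D5:**
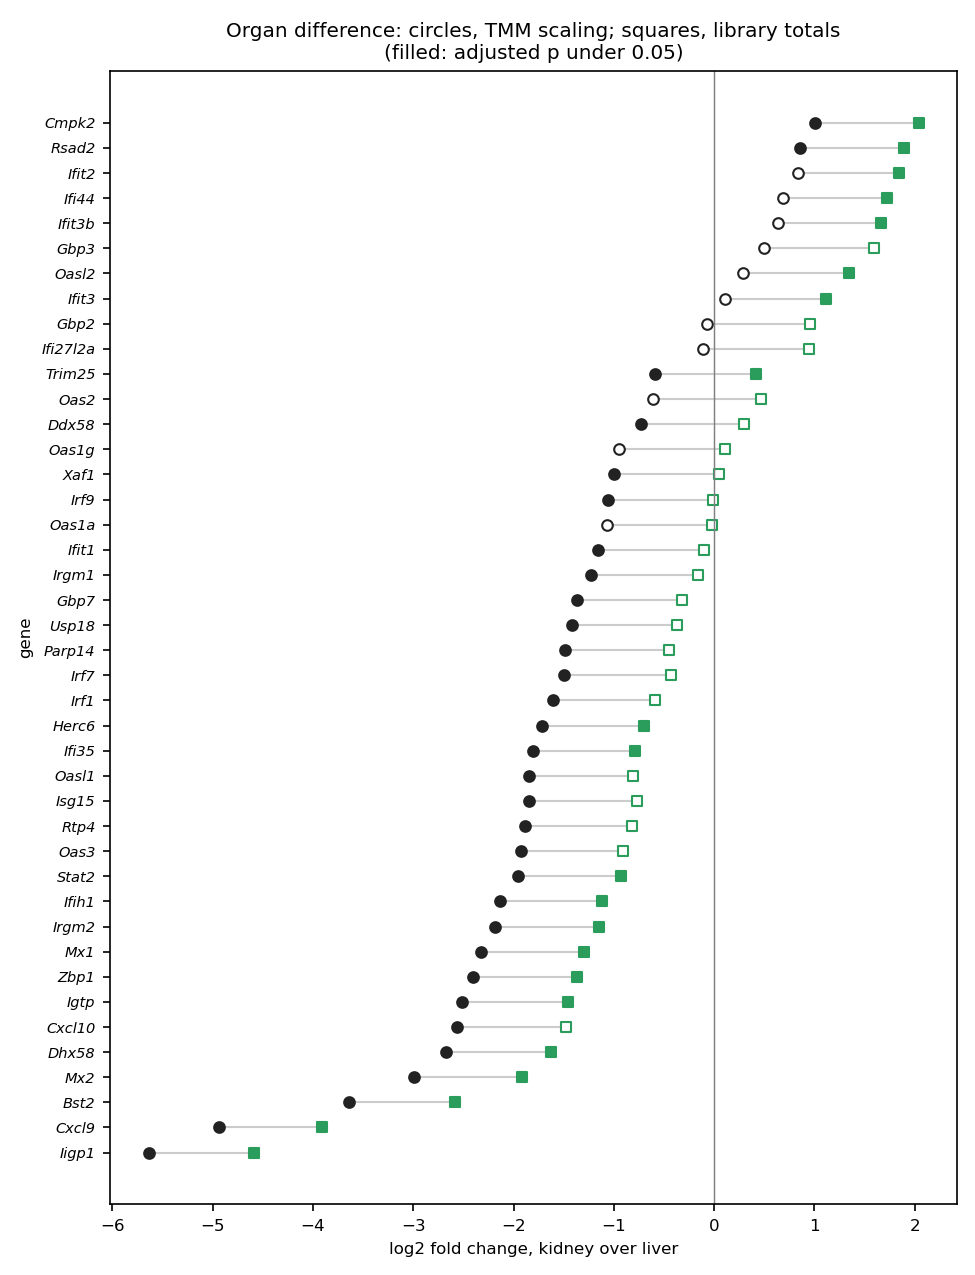
Log2 fold change of each gene, kidney over liver, under TMM scaling (circles) and with library totals (squares), filled where the adjusted p was under 0.05. Library totals move each gene to the right by about the 0.99 by which the median of all genes moves, which leaves Iigp1, Cxcl9 and Bst2 far to the left and Cmpk2 and Rsad2 at the right.

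Per transcript length, by deposited FPKM, the most abundant of the 42 genes in liver was Iigp1, with a median of 158 FPKM and a range of 123 to 219. Bst2 followed with 76.3 (48.8 to 86.7) and did not overlap with Iigp1, while Igtp, 24.7 (20.4 to 30.9), and Irgm1, 24.4 (18.3 to 55.4), did not differ beyond their spread. In kidney the first places were Ifit3 with a median of 19.3 FPKM (9.62 to 60.4), Irgm1 with 18.3 (14.9 to 63.5) and Ifi27l2a with 14.7 (5.88 to 55.5), whose ranges overlapped. Oas3 was the lowest in both organs, with medians of 0.195 FPKM in liver and 0.120 FPKM in kidney.

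The last comparison asked whether the effect of origin differed between kidney and liver, and it was not detectable for any gene. With edgeR 0 of 42 genes passed in either direction, against 0% of 14441 genes. Oas3 was the 1 gene with an unadjusted p under 0.05, against 1.9% of all genes, and DESeq2 called 0 of the 42. The difference, kidney minus liver, was 2.79 ± 1.002 on the log2 scale for Oas3, 1.72 ± 1.04 for Zbp1 and 1.33 ± 0.81 for Gbp2. The high libraries of these genes were of vitrified origin in the kidney, vitrified 4, and of fresh origin in the liver, fresh 3. The median over the list was 0.69, against 0.03 over all genes, and without the 3 libraries near 0 in Y-linked counts it was -0.07.

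Upstream of these genes, transcripts of the interferons themselves were at the limit of the data. Of 21 ligand genes, 18 had 0 counts in each of the 13 libraries, and the highest value was 3 estimated counts. A count of 0 allows up to 3 counts, or 0.150 to 0.187 CPM depending on the library, and covers counting error only. The 6 receptor genes summed to between 146 and 210 CPM in the kidneys and 105 to 132 CPM in the livers, with kidney vitrified 4 at 210 CPM and liver vitrified 2 at 132 CPM as the top libraries.

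Of the 65 further interferon-induced genes listed, 58 were highest in kidney vitrified 4 among the kidneys, against 33.9% of all kidney genes. There 44 lay at 2 times the median of the other kidneys or more, against 11.6% of all kidney genes, with a median ratio of 2.78. Gbp6, a guanylate-binding protein, reached 122 CPM there against 2.47 to 8.31 CPM in the other kidneys, and Tgtp1, an immunity-related GTPase, 65.6 CPM against 1.21 to 7.54 CPM. Psmb8, a subunit of the immunoproteasome, reached 36.6 CPM against 4.62 to 10.4 CPM. By origin, 0 of the 63 tested in each organ passed edgeR's test. At an unadjusted p under 0.05 there were 6 in liver, against 3.16% of all genes, and 0 in kidney, against 2.05%. The medians were -0.22 in liver and 0.12 in kidney. Between organs 38 of 64 were called higher in liver with TMM scaling, against 30.3% of all genes, and 3 higher in kidney, against 32.4% (median -0.88). Of 95 genes tested over all the pathway lists together, 51 were called higher in liver and 5 higher in kidney with TMM scaling, against the same shares. With library totals alone they were 20 and 30, against 10.5% and 69.7% of all genes.

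Receptors, kinases and inhibitors, and sensing and adaptor genes gave 0 calls by origin in either organ with edgeR. The genes tested were 6 receptor, 11 kinase and inhibitor, and 15 sensing and adaptor genes in kidney, and 5, 10 and 14 in liver. At an unadjusted p under 0.05 there was 1 gene in kidney, the receptor gene Ifnlr1 (-0.92 ± 0.35), against 2.05% of all kidney genes. In liver there was 1, the transcription factor gene Irf8 (0.80 ± 0.27), against 3.16% of all liver genes. Of the 15 sensing and adaptor genes in the table, 10 were highest in kidney vitrified 4 among the kidneys and 7 in liver vitrified 3 among the livers, against the 33.9% and 14.9% of all genes given above.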

How the data were processed

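The authors deposited 1 table with an estimated count and an FPKM value per gene and library. The genome build was GRCm39 and the tools listed were HISAT2 2.4, StringTie 1.3.1, Bowtie2 2.2.8 and DESeq2, per the submitters' processing notes. What each tool did, how fragments were counted and whether strand was used is not given in the sources used here. Estimated counts were rounded to whole numbers before testing, which altered 7.63% to 9.14% of them in each library. Genes were tested with edgeR 4.0.16 in R 4.3.3 (quasi-likelihood, TMM scaling, its default filter on low counts), liver and kidney apart for origin, and in 1 fit of 4 groups for organ and for the organ difference. Values of p were adjusted over all genes tested by Benjamini-Hochberg, with a threshold of 0.05, and SE was the log2 fold change over the root of the test's F. The procedure was tested on simulated data. Alternatives were DESeq2 1.42.0, limma 3.58.1 on log2(FPKM + 1) or log2(FPKM + 0.1), other scalings and filters, a replicate block, and leaving out libraries.

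The genes, gene lists and tests were chosen with earlier results of these data known, so they are no independent support. Values in every library are given for the 3 genes with the smallest p for origin in each organ and for the organ difference, for the up to 4 genes with the largest organ difference in each direction among those that passed, and for the 6 genes in each organ with the highest ratio of 1 library to the median of the others. Genes named beyond these were chosen after their values were seen. Shared sequence was counted as 50-base words of GENCODE mouse release 21 transcripts, and genes with a share over 0.1 in other genes are uncertain, namely Ifit3, Ifit3b, Oas1a, Oas1g, Gbp7, Herc6, Igtp, Rtp4 and Ifi35. Irgm2 (0.078) and Ifit1 (0.0713) came next, and that limit was chosen after the shares were seen. Promoters are of GRCm38.p6, another build than that of the table, and were matched by symbol. No 2 libraries of a group agreed within counting noise, so none was taken as a copy of another; whether each is a separate animal rests on the labels.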

Additional observations from a re-analysis of the deposited data

Results flagged for a closer look

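Among the 4 vitrified kidneys, kidney vitrified 4 was the highest for all 42 genes, and for 29 of them its gap to the next library took 0.835 to 0.98 of the group's range, above the 95% critical value of Dixon's test for 4 samples. Chance flags about 1 in 20 groups, 4.37% of the 13155 kidney genes were above that value in this library, and these genes come from the same library, so they are not separate observations. None stood apart at the low end. Of the sensors, Ddx58 reached 57.6 CPM there, Dhx58 5.78 CPM and Zbp1 7.76 CPM. Of the transcription factors, Irf1 reached 36.5 CPM, Irf7 44.2 CPM, Irf9 44.0 CPM and Stat2 56.9 CPM. Ifit1 reached 39.6 CPM, Ifit3b 35.9 CPM, Isg15 8.33 CPM and Usp18 13.8 CPM. Of the oligoadenylate synthetases, Oas1a reached 12.2 CPM, Oas1g 5.15 CPM, Oas3 2.72 CPM and Oasl2 30.0 CPM. Mx1 reached 1.87 CPM, Bst2 32.2 CPM and Cxcl9 2.83 CPM. Of the GTPases, Gbp2 reached 27.8 CPM, Gbp3 83.9 CPM, Gbp7 62.2 CPM, Igtp 70.3 CPM, Irgm1 135 CPM, Irgm2 73.5 CPM and Iigp1 72.9 CPM. Of the other induced genes, Ifi44 reached 35.1 CPM, Xaf1 12.6 CPM, Rtp4 22.7 CPM and Parp14 60.4 CPM.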

How the results depend on the processing

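By origin, 0 of the 42 genes were called in either organ or in the organ difference under each alternative run (lowest adjusted p 0.793 in liver over 19 settings, 0.722 in kidney over 20 and 0.99981 for the difference over 25). Without 1 library at a time these counts stayed at 0, and the median log2 fold change ran from -0.530 to -0.0497 in liver, -0.438 to 0.562 in kidney and -0.0637 to 0.909 for the difference. Without the libraries near 0 in Y-linked counts the medians were -0.0497, -0.188 and -0.0671, and the difference of Zbp1 was -0.323. With limma on log2(FPKM + 1), with or without a filter, and on log2(FPKM + 0.1), the kidney median was 0.0745, 0.0745 and 0.0394 and that of the difference 0.317, 0.317 and 0.372. Between organs, the calls higher in kidney and in liver were 8 and 13 with library totals, 7 and 14 with log2(FPKM + 1), 9 and 14 with log2(FPKM + 0.1), 7 and 11 without a filter (18 in all), and 1 and 16 in vitrified libraries alone (17 in all); 0 were higher in kidney in fresh libraries alone. Library totals, and the 3 limma settings in that order, gave organ medians of -0.400, -0.318, -0.530 and -0.318. Of the other pathway genes, 30, 28, 30 and 29 were then higher in kidney, against 5, and 20 each higher in liver, against 51. Vitrified libraries alone gave 3 and 30. Over all genes, 69.7% were higher in kidney and 10.5% in liver with library totals, and 67.6% and 10.3% with log2(FPKM + 1). In vitrified libraries alone they were 3495 and 2888 of 14017 genes. Without 1 library at a time, 1 to 4 genes were higher in kidney and 25 to 32 in liver, and 4 to 6 and 45 to 58 of the other pathway genes. The cause was not tested.

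Correlations of the deviations of same-numbered samples ran from -0.448 to 0.371 between the kidney groups and from -0.159 to 0.0728 between the liver groups, so numbers did not pair the origins. Between organs they were 0.195 to 0.206 in the fresh groups, each library correlating best with its own number, a hint of pairing that the labels do not state. In the vitrified groups they were 0.0436 to 0.342. There liver vitrified 2 correlated better with kidney vitrified 1 (0.0519) than with kidney vitrified 2 (0.0436), so the hint is weaker. With the number as a replicate block, 0 genes were called by origin, the kidney median was -0.400 and that of the difference -0.0458 (kidney vitrified 4 has no partner, so it drops out of the kidney contrast), and 34 were called between organs. Added after seeing the data, a replicate block by origin and number called 35. Depth limits Oas3 and Mx1 in kidney and the interferon ligands.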
